A study of Homo sapiens with 12 samples.

Results

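The mRNAs of 9 chemokine genes were followed across 4 groups of renal carcinoma cells: CCL2, CCL5 and CCL20 of the CC class, and CXCL1, CXCL2, CXCL3, CXCL5, CXCL8 and CXCL10 of the CXC class. They are 9 of the 38021 gene names in the deposited table. The set was chosen by name, after CCL5 had been seen to be lost with shBMAL1 in one of the lines (WT8), so the values of the members in that contrast are given as a description, without p or call. CXCL8 is the gene formerly called IL8. The cells were 786-O, a clear cell renal cell carcinoma (ccRCC) line without functional VHL (written 786O in the plots), and WT8, a derivative of 786-O that expresses wildtype VHL. Each line was infected with a lentiviral pLKO.1 vector that carried a scrambled shRNA (shControl) or an shRNA against the clock gene BMAL1 (shBMAL1). Each of the 4 resulting groups had 3 libraries, and all cells were kept under puromycin in medium with serum. The knockdown lines are infected pools under selection, and whether WT8 is a single clone is not stated in the sources used here.

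Chemokines are small secreted proteins that bind receptors on leukocytes and direct their migration. The CXC members CXCL1, CXCL2, CXCL3, CXCL5 and CXCL8 carry an ELR motif and draw neutrophils, mainly through the receptor CXCR2, while CXCL10 lacks that motif and binds CXCR3 on activated T cells and natural killer cells. CCL2 binds CCR2 and draws monocytes, CCL5 draws T cells and monocytes, and CCL20 is the ligand of CCR6. Epithelial and tumor cells make many of these mRNAs after TNF, IL-1 or interferon, through NF-kappa B, AP-1, C/EBP, IRF and STAT factors, and several of them carry elements that make them decay quickly. VHL marks HIF alpha subunits for destruction, and BMAL1 belongs to the same protein family as the HIF partner ARNT.

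Total counts ran from 33182005 to 36477484 per library, and 16838 genes had enough counts to be tested, among them 8 of the 9 members. CXCL10 did not pass the filter on low counts. The labels were checked first. BMAL1, listed as ARNTL, fell by 1.62 on the log2 scale with shBMAL1 in 786-O (378 to 464 counts with shControl, 128 to 142 with shBMAL1) and by 2.48 in WT8 (309 to 355 and 56 to 72 counts). VHL had means of 18.8 and 19.4 CPM in the 786-O groups, 981 with shControl in WT8, and 647 with shBMAL1 there, so the WT8 groups also differed in VHL transcript. Of 30 cell cycle genes, the whole list was lower in WT8 shControl than in 786-O shControl, beside 40.2% of all genes. The whole list was higher with shBMAL1 than with shControl in WT8, beside 32.9% of all genes. The summed level of these 30 genes was 7100 to 7300 CPM in 786-O shControl, 7410 to 7660 in 786-O shBMAL1, 1480 to 1560 with shControl in WT8, and 6880 to 6950 with shBMAL1 in WT8. The WT8 shControl libraries thus stood apart in both comparisons that used them, and the part of this difference in the chemokine values was not tested. The 10 renal and epithelial genes were uneven. Abundant in every group were PAX8 (means of 313 to 1330 CPM), VIM (1820 to 4480), KRT8 (438 to 865), KRT18 (254 to 479) and CDH2 (106 to 530). PAX2 was lower (10.9 to 24.8 CPM). Near 0 were CA9, a common ccRCC marker (0 to 1.20 CPM), NDUFA4L2 (0.287 to 1.38) and CUBN (0.682 to 1.58). LRP2 did not pass the filter (at most 0.0288 CPM). Of 10 leukocyte markers, 3 passed the filter (CD14, ITGAM and CSF1R), with CD3E, MS4A1 and FCGR3A at 0 in every group mean and a summed level of 1.55 to 7.41 CPM.

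Promoter stretches of 4 members that lie close together are shown. Those of CXCL1 and CXCL2 are much alike, while the levels of these genes per kb of exon stood in opposite order in the lines, and CXCL5 and CXCL8 stand beside them for comparison. CXCL8, CXCL1, CXCL5, CXCL3 and CXCL2 lie in this order within 358678 bases of chromosome 4 (GRCh37). RefSeq promoter sequences (GRCh38.p14, 250 bases before to 50 after the start) matched 7 members, all but CCL2 and CCL5. The stretches below run 5′ to 3′ from 150 to 61 bases before the RefSeq start of each gene and were placed on GRCh37 by exact match. For CXCL8 that start lies inside the GENCODE gene span given further on, so the distances hold for the RefSeq start only. Capitals mark a match to the kappa B consensus, the motif bound by NF-kappa B.
CXCL1, chr4:74734960-74735049, plus strand: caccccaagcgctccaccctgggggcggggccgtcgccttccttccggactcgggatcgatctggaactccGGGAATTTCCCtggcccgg
CXCL2, chr4:74964973-74965062, minus strand: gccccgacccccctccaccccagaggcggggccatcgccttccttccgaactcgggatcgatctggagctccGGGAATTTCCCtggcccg
CXCL5, chr4:74864455-74864544, minus strand: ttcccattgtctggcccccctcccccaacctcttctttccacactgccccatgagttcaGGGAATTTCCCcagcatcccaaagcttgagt
CXCL8, chr4:74606136-74606225, plus strand: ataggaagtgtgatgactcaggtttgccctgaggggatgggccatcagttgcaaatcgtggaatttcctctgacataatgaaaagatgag
The CXCL5 stretch overlaps an exon of the unnamed gene ENSG00000287037 on the opposite strand. The same 11 letters are in capitals in CXCL1, CXCL2 and CXCL5, where the motif matches both strands at positions shifted by 1 base.

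Both strands of each promoter were searched for 4 motifs. The kappa B consensus was present in 6 of the 7 promoters matched (CCL20, CXCL1, CXCL2, CXCL3, CXCL5 and CXCL10) and in 11.3% of all 35116 promoters. The interferon response element GAAANNGAA was present in CXCL2, CXCL3 and CXCL10 and in 8.11% of all promoters. The E-box CACGTG, the motif bound by BMAL1 with CLOCK, was in 0 of the 7 and in 7.26% of all promoters. The hypoxia response core ACGTG, which every E-box also contains, was in CXCL10 alone among the 7 and in 21.4% of all promoters. These are matches of letters within 300 bases of a start and say nothing of binding. The CXCL8 stretch holds the letters tggaatttcc, which differ from the kappa B consensus only in the first letter and were not counted. A promoter without a match may thus still hold a related site.

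**Figure D1:**
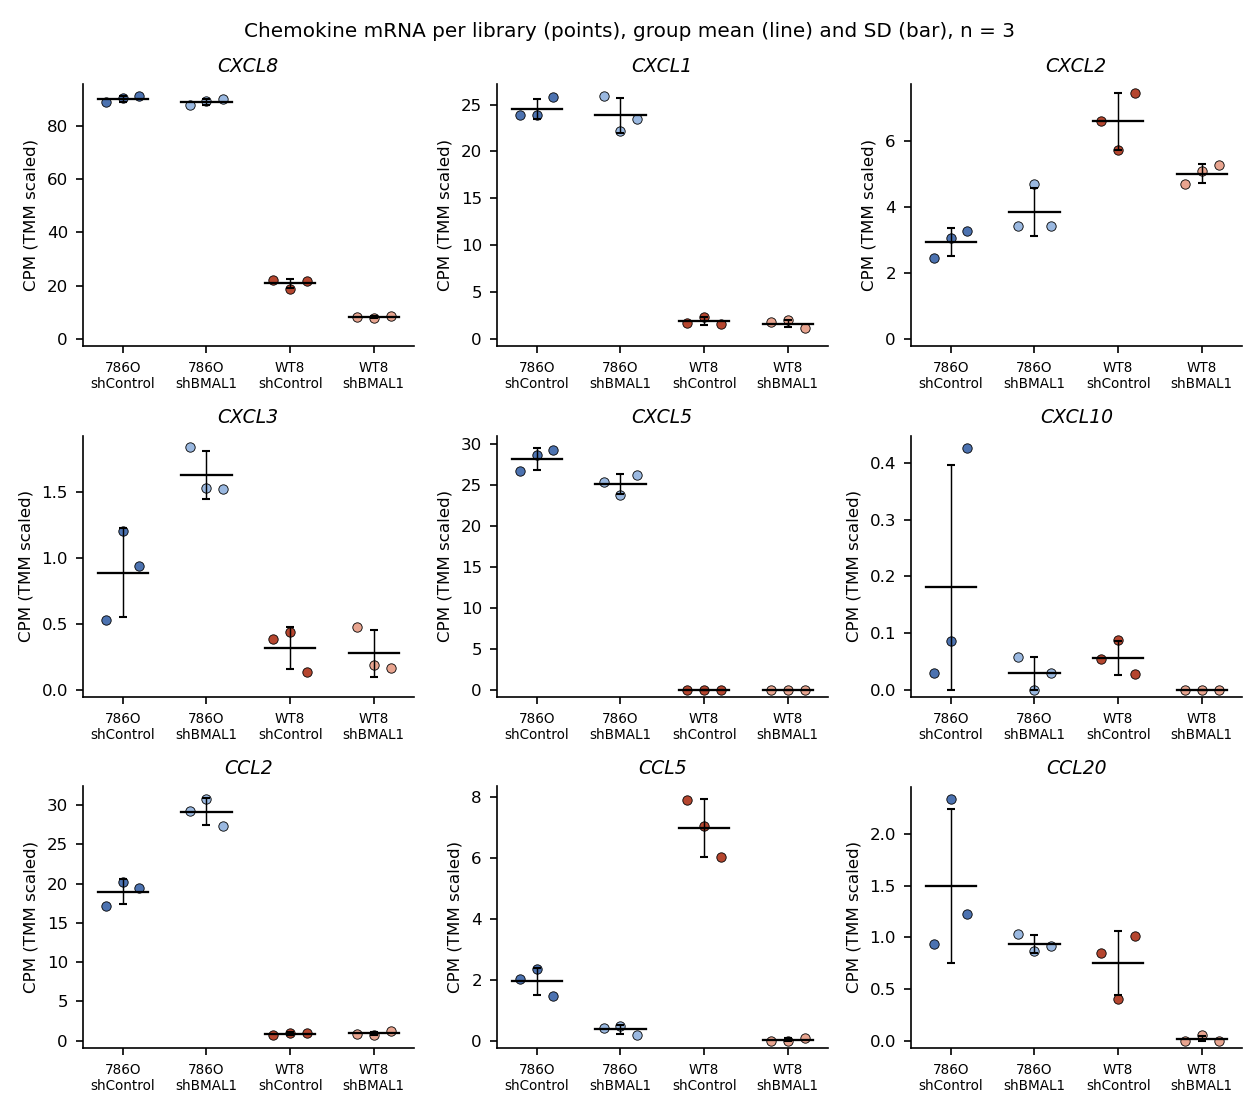
Level of each chemokine mRNA in CPM (TMM scaled, linear axis from 0) in the 12 libraries. Points are libraries, lines are group means and bars are SD (n = 3). CXCL8, CXCL1, CXCL5 and CCL2 are high in both 786-O groups and low or at 0 in WT8, while CCL5 and CXCL2 are highest in WT8 shControl.

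CXCL8, the neutrophil attractant formerly named interleukin 8 (GRCh37 chromosome 4, 74606236 to 74609433), was the most abundant member by count. It had 88.9, 90.4 and 91.3 CPM (counts per library size, which was adjusted by TMM) in 786-O shControl, 88.0, 89.3 and 90.2 in 786-O shBMAL1, 22.0, 18.8 and 21.6 in WT8 shControl, and 8.05, 7.73 and 8.54 in WT8 shBMAL1. The 786-O groups overlapped, and each WT8 group lay apart from every other group. In 786-O the log2 change with shBMAL1 was -0.02 (SE 0.06, adjusted p 0.844 by the quasi-likelihood F test of edgeR, adjusted over all genes by Benjamini-Hochberg). The value in WT8 was -1.36 (SE 0.07), a 2.57-fold difference in mean CPM. Between the lines CXCL8 was 4.33-fold lower in WT8 with shControl (log2 -2.11, SE 0.06, and 1.22e-26 as the adjusted p in edgeR) and 11.0-fold lower with shBMAL1 (log2 -3.46, SE 0.07, adjusted p 9.67e-32).

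CXCL1, which also acts through CXCR2 (chromosome 4, 74735110 to 74737025), had 23.9, 23.9 and 25.8 CPM in 786-O shControl and 25.9, 22.2 and 23.5 in 786-O shBMAL1. In WT8 it had 1.69, 2.32 and 1.60 CPM with shControl and 1.73, 1.95 and 1.18 with shBMAL1. The shControl and shBMAL1 libraries overlapped in both lines, and all WT8 libraries lay below all 786-O libraries. The log2 change with shBMAL1 was -0.04 in 786-O (SE 0.10, adjusted p 0.772 in edgeR) and -0.20 in WT8 (SE 0.18). CXCL1 was 13.1-fold lower in WT8 than in 786-O with shControl (log2 -3.72, SE 0.13, and 2.82e-24 as the adjusted p in edgeR) and 14.7-fold lower with shBMAL1 (log2 -3.88, SE 0.13, adjusted p 1.78e-24).

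CXCL5, made mainly by epithelial cells (chromosome 4, 74861359 to 74864394), had 26.7, 28.6 and 29.3 CPM in 786-O shControl and 25.4, 23.8 and 26.2 in 786-O shBMAL1, or 826 to 1030 counts. Its count was 0 in all 6 WT8 libraries. The 786-O groups did not overlap, but with a log2 change of -0.17 (SE 0.09) CXCL5 missed the threshold at an adjusted p of 0.119 in edgeR. It was called, at the same log2 change, when counts were halved (adjusted p 0.0731) and when only the 786-O libraries were fitted (adjusted p 0.047). It was also called without 786-O shControl replicate 1 (-0.21), WT8 shControl replicate 2 or WT8 shBMAL1 replicate 1 (both -0.17). Against a floor of 3 counts per library, CXCL5 was at least 338-fold lower in WT8 than in 786-O with shControl and at least 314-fold lower with shBMAL1. CXCL5 passed the filter only through the 786-O groups, so it had to differ between the lines. It overlaps ENSG00000287037 on the opposite strand, and use of strand in counting is not stated.

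CXCL2, a close relative of CXCL1 (chromosome 4, 74962757 to 74964913), was the one CXC member that was higher in WT8. It had 2.45, 3.06 and 3.27 CPM in 786-O shControl, 3.42, 4.69 and 3.42 in 786-O shBMAL1, 6.58, 5.71 and 7.45 in WT8 shControl, and 4.68, 5.08 and 5.25 in WT8 shBMAL1. Its shBMAL1 libraries lay above the shControl libraries in 786-O and below them in WT8. In 786-O the log2 change was 0.39 (SE 0.16, adjusted p 0.0528 in edgeR), which was no longer called without 786-O shControl replicate 1 (0.28, adjusted p 0.236) or without 786-O shBMAL1 replicate 2 (0.22, adjusted p 0.361). In WT8 it was -0.40 (SE 0.15), or -0.30 without WT8 shControl replicate 3. CXCL2 was 2.25-fold higher in WT8 than in 786-O with shControl (log2 1.17, SE 0.16, and 2.85e-08 as the adjusted p in edgeR). With shBMAL1 the groups overlapped, the log2 difference was 0.38 (SE 0.15, adjusted p 0.0287 in edgeR), and it was not called without 786-O shBMAL1 replicate 1 (0.30) or 3 (0.31).

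CXCL3, the least abundant in 786-O of the members between CXCL8 and CXCL2 (chromosome 4, 74902306 to 74904524), had 18, 42 and 33 counts in 786-O shControl, 64, 53 and 53 in 786-O shBMAL1, 14, 15 and 5 in WT8 shControl, and 18, 7 and 6 in WT8 shBMAL1. The 786-O groups did not overlap and the WT8 groups did. CXCL3 rose 1.83-fold in mean CPM with shBMAL1 in 786-O (log2 0.87, SE 0.35, adjusted p 0.0453 in edgeR). That call was lost without 786-O shControl replicate 1 (0.60, adjusted p 0.232) and without 786-O shBMAL1 replicate 1 (0.77, adjusted p 0.143). In WT8 the log2 change was -0.19 (SE 0.49). CXCL3 was lower in WT8 than in 786-O by a log2 of -1.48 with shControl (SE 0.42, adjusted p 0.0021 in edgeR) and -2.55 with shBMAL1 (SE 0.41, adjusted p 1.21e-06).

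CXCL1, CXCL2 and CXCL3 are near-identical in parts. Of the 31-base words in their longest coding transcripts, 14.4%, 21.7% and 5.65% occur in another of the members, while 0 of their 100-base words do. How reads with several matches were assigned is not stated, so the counts of these genes were also summed. The sum ran from 920 to 1056 counts in 786-O shControl, 987 to 1084 in 786-O shBMAL1, 292 to 338 with shControl in WT8, and 246 to 270 with shBMAL1 in WT8. Its log2 change with shBMAL1 was 0.05 in 786-O (SE 0.08, adjusted p 0.649 in edgeR) and -0.35 in WT8 (SE 0.09). The sum was lower in WT8 by a log2 of -1.69 with shControl (SE 0.08, adjusted p 1.26e-19 in edgeR). CXCL1 held most of the sum in 786-O shControl (818 to 908 counts), so this difference mostly follows CXCL1. It cannot show whether shared reads entered the higher CXCL2 in WT8.

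**Figure D2:**
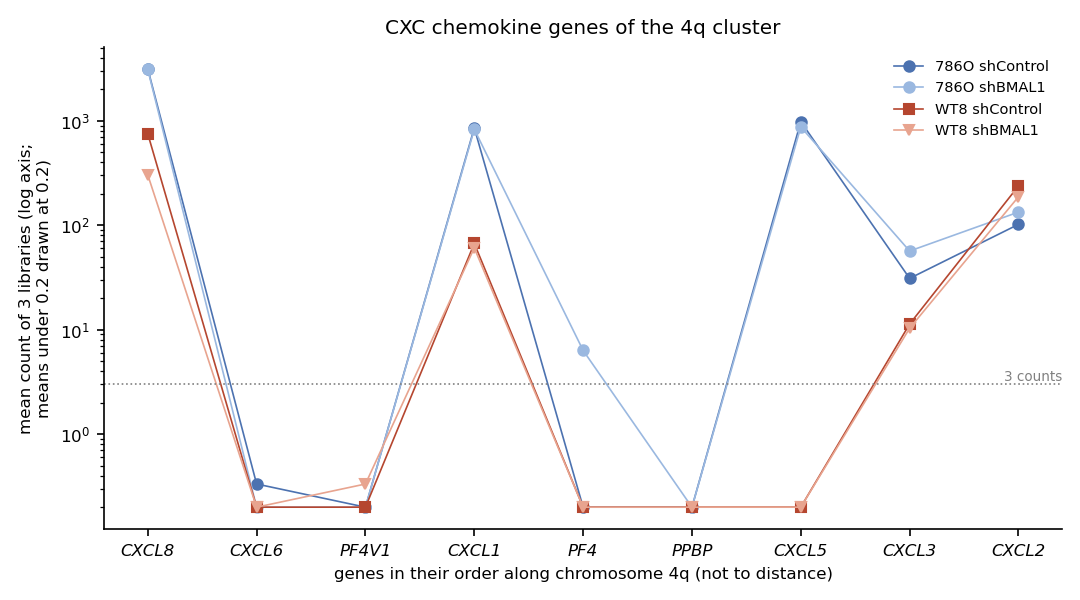
Mean count of 3 libraries (log axis, means under 0.2 drawn at 0.2) for the genes of the 4q chemokine cluster in chromosomal order, by group. CXCL5 drops to 0 in WT8 between CXCL1 and CXCL3, which keep some counts, and the WT8 groups lie above the 786-O groups at CXCL2 alone among the members.

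Silent genes stood between expressed ones in the 4q cluster. CXCL6 had 1 count in 1 library and PF4V1 had 1 count in 1 library, and PPBP, the platelet basic protein gene, had 0 in all 12. PF4, which encodes platelet factor 4, had 13, 3 and 3 counts in 786-O shBMAL1 and 0 in the other 9 libraries, and it was named after its values were seen. It lies between CXCL1, at 771 or more counts in 786-O, and CXCL5, at 826 or more.

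CXCL10, the CXCR3 ligand induced by interferon (chromosome 4, 76942271 to 76944650), was hardly detected. Its counts were 1, 3 and 15 in 786-O shControl, 2, 0 and 1 in 786-O shBMAL1, 2, 3 and 1 in WT8 shControl, and 0 in the 3 WT8 shBMAL1 libraries. One library of 786-O shControl held most of the counts, and no difference was detectable at this depth. CXCL10 lies opposite ART3, so these counts may include reads of that gene.

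CCL2, the monocyte attractant (chromosome 17, 32582293 to 32584227), had 17.2, 20.2 and 19.5 CPM in 786-O shControl and 29.3, 30.8 and 27.4 in 786-O shBMAL1. In WT8 it had 0.734, 1.02 and 0.952 CPM with shControl and 0.851, 0.775 and 1.20 with shBMAL1, or 27 to 45 counts. The 786-O groups did not overlap and the WT8 groups did. CCL2 rose 1.54-fold with shBMAL1 in 786-O (log2 0.62, SE 0.09, adjusted p 9.2e-07 in edgeR), and this change ran from 0.55 to 0.66 when each library was left out. In WT8 the log2 change was 0.07 (SE 0.21). CCL2 was 21.1-fold lower in WT8 than in 786-O with shControl (log2 -4.39, SE 0.14, and 1.82e-25 as the adjusted p in edgeR) and 30.9-fold lower with shBMAL1 (log2 -4.95, SE 0.13, adjusted p 1.82e-27).

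CCL5, the T cell and monocyte attractant on which the set was chosen (chromosome 17, 34198495 to 34207797), had 70, 82 and 51 counts in 786-O shControl and 15, 17 and 7 in 786-O shBMAL1. In WT8 it had 291, 243 and 221 counts with shControl and 0, 0 and 3 with shBMAL1. None of the 4 groups overlapped, and WT8 shControl was the highest and WT8 shBMAL1 the lowest. The contrast in WT8 was at least 87.3-fold against the floor of 3 counts per library, which describes the choice of the gene and was not tested. The 786-O libraries took no part in that choice. There CCL5 fell 5.21-fold, from 1.95 ± 0.455 to 0.374 ± 0.152 CPM (SD, n = 3), with a log2 change of -2.37 (SE 0.31, adjusted p 7.19e-08 in edgeR). The change ran from -2.61 to -2.08 when each library was left out. WT8 shControl was 3.59-fold above 786-O shControl, and WT8 shBMAL1 at least 4.67-fold below 786-O shBMAL1, so the order of the lines in CCL5 differed between shControl and shBMAL1. CCL5 overlaps ENSG00000270240 on the opposite strand. In cultures, fewer cells that make an mRNA and less mRNA per cell cannot be told apart.

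CCL20, the CCR6 ligand (chromosome 2, 228670455 to 228682280), had 32, 82 and 43 counts in 786-O shControl, 36, 30 and 32 in 786-O shBMAL1, 31, 14 and 37 in WT8 shControl, and 0, 2 and 0 in WT8 shBMAL1. The 3 other groups overlapped each other and WT8 shBMAL1 lay below them. In WT8 CCL20 was at least 9.38-fold lower with shBMAL1, with no test. In 786-O the log2 change was -0.68 (SE 0.36, adjusted p 0.132 in edgeR), which was called with halved counts (adjusted p 0.0695), with only the 786-O libraries fitted (adjusted p 0.0701) and without 786-O shControl replicate 1 (-0.93, adjusted p 0.0556). Between the lines CCL20 was lower in WT8 by a log2 of -0.99 with shControl (SE 0.37, adjusted p 0.0152 in edgeR), a call that was lost without 786-O shControl replicate 2 (-0.52) or WT8 shControl replicate 2 (-0.70). With shBMAL1 it was at least 11.7-fold lower in WT8 (adjusted p 1.58e-08 in edgeR).

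**Figure D3:**
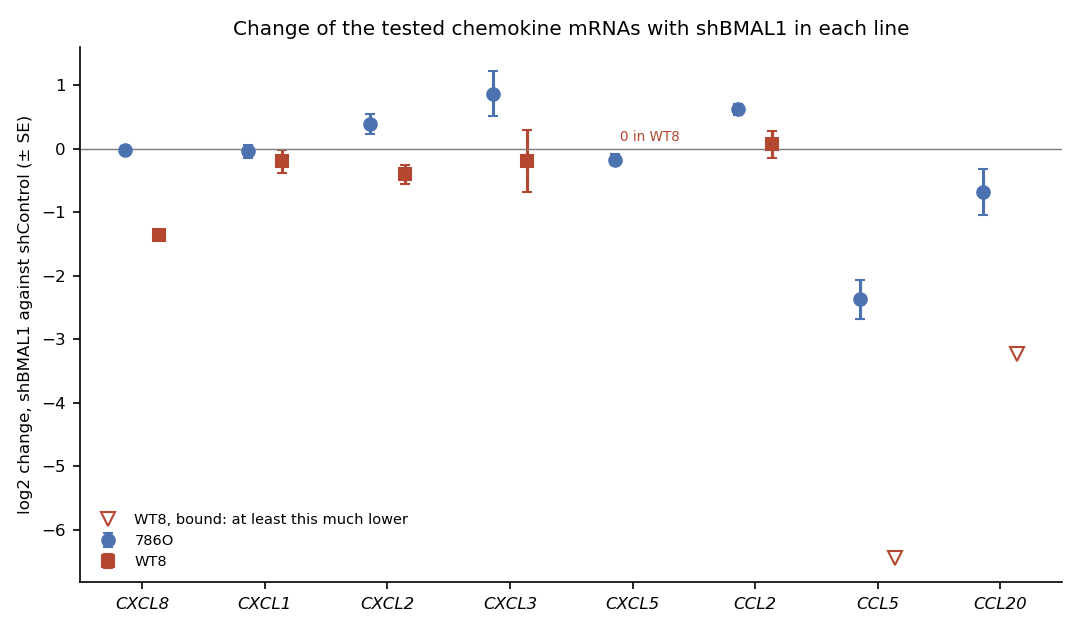
Log2 change with shBMAL1 against shControl for the 8 tested chemokines, in 786-O (circles, ± SE) and WT8 (squares, ± SE). Open triangles are bounds for CCL5 and CCL20, whose WT8 shBMAL1 libraries held 3 counts or fewer, and CXCL5 had 0 counts in WT8. CCL5 is the member with the largest fall in 786-O, at -2.37, where CCL2, CXCL2 and CXCL3 lie above 0.

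Set side by side, the members gave these counts. With shBMAL1 in 786-O, 3 of 8 were called higher (CCL2, CXCL2 and CXCL3) and 1 lower (CCL5), beside 24.5% of all genes called higher and 24.4% called lower. The median log2 change of the members was -0.03, beside 0.00 for all genes. In WT8, where CCL5 chose the set, the members are only described. Every shBMAL1 library lay below every shControl library there in CCL5, CCL20, CXCL2 and CXCL8, and also in CXCL10 at 3 counts or fewer, and in 0 members above. The share of all genes whose libraries lay apart in this way is not given here, so nothing is read from this count. By the test, which is a different measure, 32.9% of all genes were called higher and 36.9% lower in WT8. Their median was -0.30, CCL5 included, beside -0.04 for all genes. The log2 change in WT8 minus that in 786-O was -0.55 for CCL2 (SE 0.24), -0.16 for CXCL1 (SE 0.20) and -0.79 for CXCL2 (SE 0.22). It was -1.06 for CXCL3 (SE 0.61) and -1.34 for CXCL8 (SE 0.09). These values contain the same contrast and are given without a test. None is given for CCL5, CCL20 and CXCL5, which had 3 counts or fewer in every library of a WT8 group.

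Between the lines the members were mostly lower in WT8. CCL5 is left out of these counts because its WT8 libraries chose the set. With shControl, 1 of the 7 other members tested was called higher in WT8 (CXCL2) and 6 lower, beside 39.3% and 40.2% of all genes, and their median log2 difference was -2.11, beside 0.00 for all genes. With shBMAL1, 1 was called higher (CXCL2) and 6 lower, beside 36.0% and 37.0% of all genes, with a median of -3.88, again beside 0.00. The counts and medians include CXCL5, which had to differ. Each of these comparisons shares its libraries with the shBMAL1 comparisons. The lines were separate cell populations, so VHL and other differences between them cannot be told apart.

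**Figure D4:**
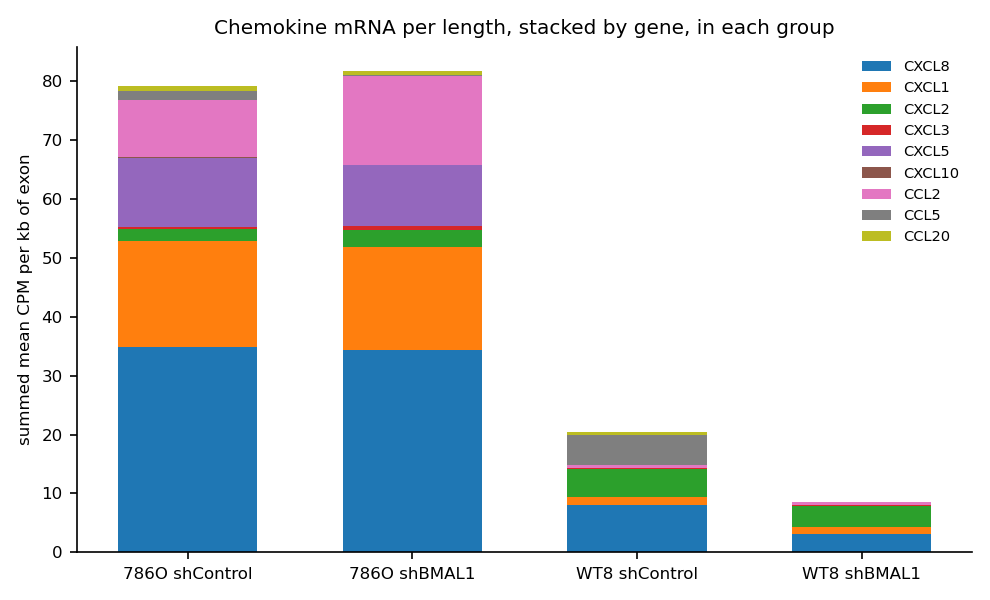
Mean CPM per kb of exon, summed over the 9 chemokines and stacked by gene (linear axis from 0), in each group. The 786-O stacks are much taller than the WT8 stacks, and CCL5 is a visible block in WT8 shControl and too small to see in the WT8 shBMAL1 bar.

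Levels were compared between genes per kb of exon (CPM per kb). In 786-O shControl the order was CXCL8 (34.8 ± 0.475, SD, n = 3), CXCL1 (18.0 ± 0.820), CXCL5 (11.6 ± 0.551), CCL2 (9.80 ± 0.824), CXCL2 (2.09 ± 0.304), CCL5 (1.43 ± 0.334), CCL20 (0.941 ± 0.468), CXCL3 (0.400 ± 0.154) and CXCL10 (0.154 ± 0.183). CCL5 overlapped CCL20 over the libraries and CXCL3 overlapped CXCL10, and no other neighbours in the order did. With shBMAL1 in 786-O, CCL2 (15.1 ± 0.893) moved past CXCL5 (10.3 ± 0.512) at these lengths, and CCL5 (0.274 ± 0.112) dropped below CXCL3 and CCL20. The length used for CCL2 covers its whole gene, so its place beside CXCL5 in either group rests on that length.

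In WT8 shControl the order per kb was CXCL8 (8.04 ± 0.678), CCL5 (5.12 ± 0.698), CXCL2 (4.71 ± 0.621), CXCL1 (1.37 ± 0.288), CCL20 (0.471 ± 0.195), CCL2 (0.465 ± 0.0762) and CXCL3 (0.143 ± 0.0718). Here CCL5 overlapped CXCL2, CCL20 overlapped CCL2, and CXCL3 overlapped CXCL10. In WT8 shBMAL1 CXCL2 led at these lengths (3.58 ± 0.209), followed without overlap by CXCL8 (3.13 ± 0.158) and CXCL1 (1.19 ± 0.292). Before division by length CXCL8 was the higher there, at a mean of 8.11 CPM against 5 for CXCL2, so this lead rests on the lengths used. CCL5 made up 1.81% of the members' summed CPM per kb in 786-O shControl, 0.335% in 786-O shBMAL1, 25.1% with shControl in WT8, and 0.229% with shBMAL1 in WT8. CXCL2 made up 2.64%, 3.37%, 23.1% and 41.9% in the same order, while CXCL8 stayed between 36.6% and 43.9%.

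The genes whose level was most like that of CCL5 over the 12 libraries were ZNF425 (Pearson r 0.986 on log2 CPM), HOST2 (0.984), MACROD2 (0.981), PLIN2 (0.981) and CYB5D2 (0.979). They are the first of 12942 candidates averaging 50 counts or more, of which 317 had r over 0.9. PLIN2, which coats lipid droplets, had means of 199 CPM in 786-O shControl, 136 in 786-O shBMAL1, 303 with shControl in WT8, and 73.5 with shBMAL1 in WT8. For CXCL8 they were TNFSF10, which encodes the death ligand TRAIL, EFEMP2 and the receptor gene MET (all 0.997), and 1349 candidates had r over 0.9. The libraries form 4 groups, so these values describe mainly the 4 group means.

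Few other chemokine genes were expressed. Of 35 others in the table, 4 were tested. CCL28, a mucosal chemokine, fell with shBMAL1 in 786-O (log2 -0.75, adjusted p 0.00145 in edgeR) and in WT8 (-0.52, adjusted p 0.0622). CXCL16, a membrane-bound ligand of CXCR6, went from 150 to 163 counts with shControl in WT8 to 39 to 53 with shBMAL1, and fell there by 1.88 on the log2 scale (adjusted p 4.12e-09 in edgeR), with no call in 786-O (-0.27). CX3CL1, or fractalkine, rose in 786-O (0.33, adjusted p 0.0202 in edgeR), with no call in WT8 (0.10). CXCL12 was not called with shBMAL1 in either line. That made 1 of 4 higher and 1 lower in 786-O, and 0 higher and 2 lower in WT8. The medians of the 4 were -0.51 and -0.21. Among all genes, 24.5% were called higher and 24.4% lower in 786-O, and 32.9% and 36.9% in WT8.

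Receptors were nearly silent, with 4 of 23 tested. ACKR3, an atypical receptor that scavenges CXCL12, had 375 to 441 counts in 786-O shControl, 328 to 423 in 786-O shBMAL1, 4 to 14 with shControl in WT8, and 0 to 6 with shBMAL1 in WT8. It fell in WT8 (log2 -1.75, adjusted p 0.0077 in edgeR), with no call in 786-O (-0.10). The other receptors had means under 50 counts and were named after their values were seen. CCR6, the receptor of CCL20, had 9 to 12 counts in 786-O shControl, 2 to 5 in 786-O shBMAL1, 19 to 33 with shControl in WT8, and 0 to 4 with shBMAL1 in WT8, so its group means stood in the same order as those of CCL5. CCR10 was called lower in both lines and CCRL2 was called higher in 786-O (1.87). The counts were 1 of 4 higher and 2 lower in 786-O, and 0 higher and 3 lower in WT8, with medians of -0.52 and -1.22. Beside them stand 24.5% of all genes called higher and 24.4% lower in 786-O, and 32.9% and 36.9% in WT8. CCR6 is among those lower in WT8 and enters that median. It had at most 12 counts outside WT8 shControl and may have passed the filter through that group alone, so its fall there is no independent result.

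**Figure D5:**
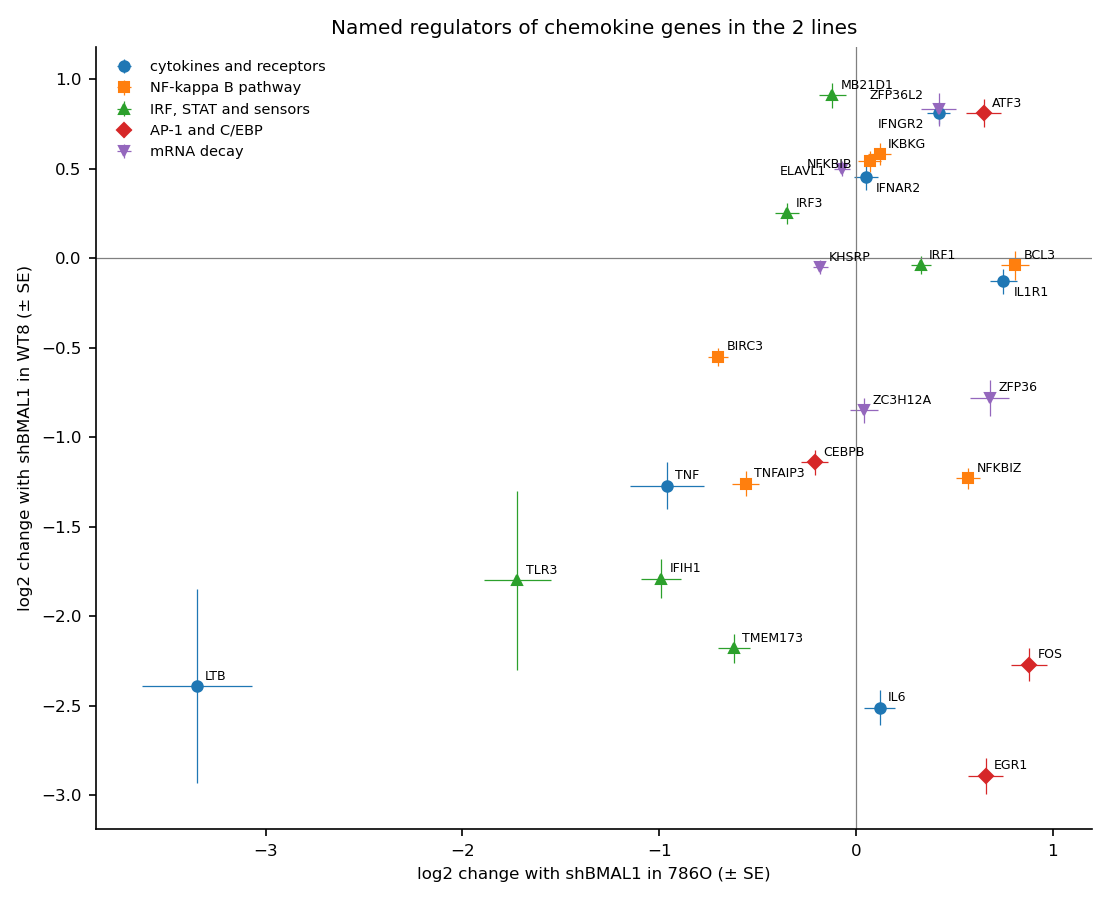
Log2 change with shBMAL1 in 786-O (x axis) and WT8 (y axis), each ± SE, for the named genes of 5 lists of chemokine regulators. FOS, EGR1, NFKBIZ, ZFP36 and IL1R1 lie to the right of 0 and below 0, and LTB, TNF, TLR3, IFIH1, TMEM173, TNFAIP3 and BIRC3 are below 0 in both lines.

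Cytokines that induce chemokines and their receptors were examined as a list of 20 genes, 13 of them tested. In 786-O 6 were called higher and 3 lower, and in WT8 3 higher and 10 lower, with medians of 0.12 and -0.38. The shares of all genes were 24.5% higher and 24.4% lower in 786-O, and 32.9% and 36.9% in WT8. TNF, a main inducer of CCL5 and CXCL8, had 87 to 93 counts in 786-O shControl, 34 to 60 in 786-O shBMAL1, 398 to 578 with shControl in WT8, and 190 to 229 with shBMAL1 in WT8. It fell in 786-O (log2 -0.96, adjusted p 9.48e-05 in edgeR) and in WT8 (-1.27, adjusted p 2.05e-10). LTB, a lymphotoxin subunit, fell by 3.35 in 786-O and 2.39 in WT8 on the log2 scale. IL6 was not called in 786-O (0.12) and fell in WT8 (-2.51, adjusted p 1.73e-20 in edgeR), from 36.2 ± 0.953 to 6.34 ± 1.36 CPM. IL1B, which falls outside the naming rule and was named after its values were seen, had 156 to 175 counts in WT8 shControl and 0 to 3 in each of the other groups. IL1B passed the filter only through WT8 shControl, so it had to fall in WT8, where it is among the 10 called lower. Among the receptors, IL1R1 rose in 786-O (0.75) and fell slightly in WT8 (-0.13, adjusted p 0.0945 in edgeR), IFNGR2 rose in both lines (0.42 and 0.81), and IFNAR2 rose in WT8 (0.45).

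All 18 genes of the NF-kappa B list were tested, with 5 called higher and 7 lower in 786-O and 4 higher and 11 lower in WT8 (medians -0.09 and -0.33). For comparison, 24.5% of all genes were called higher and 24.4% lower in 786-O, and 32.9% and 36.9% in WT8. TNFAIP3 and BIRC3, targets of the pathway that also act on it, fell in both lines, at log2 -0.56 and -0.70 in 786-O and -1.26 and -0.55 in WT8. NFKBIZ, a nuclear co-regulator of inflammatory genes, rose in 786-O (0.57) and fell in WT8 (-1.23), and BCL3 rose in 786-O (0.81) and was not called in WT8 (-0.04). IKBKG and NFKBIB rose in WT8 (0.58 and 0.54). RELA, the subunit most often tied to these promoters, was named after its values were seen, at 0.00 in 786-O and -0.44 in WT8.

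The list of IRF and STAT factors and nucleic acid sensors had 14 genes tested. In 786-O 1 was called higher and 8 lower, and in WT8 2 higher and 8 lower, with medians of -0.36 and -0.48. Over all genes the calls were 24.5% higher and 24.4% lower in 786-O, and 32.9% and 36.9% in WT8. TLR3, a receptor for double-stranded RNA, fell in 786-O (log2 -1.72) and in WT8 (-1.80), where it had at most 16 counts. IFIH1, a cytosolic RNA sensor, fell by 0.99 and 1.79, and TMEM173, which encodes STING, fell by 0.62 and 2.18. IRF1 rose in 786-O (0.33) and was not called in WT8 (-0.04). IRF3 fell in 786-O (-0.35) and rose in WT8 (0.25), and MB21D1, which encodes cGAS, rose in WT8 (0.91).

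Of 10 AP-1, EGR1 and C/EBP genes, 6 were called higher and 1 lower in 786-O, and 1 higher and 8 lower in WT8. Both calls, higher in 786-O and lower in WT8, were made for 4 genes (JUN, JUNB, FOS and EGR1). The share of all genes with both calls is not given here, so nothing is read from this count. The medians were 0.22 and -0.87. Across all genes 24.5% were called higher and 24.4% lower in 786-O, and 32.9% and 36.9% in WT8. FOS rose from 9.34 ± 0.478 to 17.2 ± 1.5 CPM in 786-O and fell from 31.6 ± 0.417 to 6.54 ± 0.909 CPM in WT8 (log2 0.88 and -2.27). EGR1 went the same way (0.66 and -2.89). CEBPB fell in both lines (-0.21 and -1.14), and ATF3 rose in both (0.65 and 0.81). The log2 change in WT8 minus that in 786-O was called negative for 9 of the 10 genes and positive for 0, where 28.5% of all genes were called negative and 27.4% positive.

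Of 6 genes that bind AU-rich or stem-loop elements of chemokine mRNAs, 3 were called higher and 1 lower in 786-O, and 2 higher and 3 lower in WT8. Set against this were 24.5% of all genes higher and 24.4% lower in 786-O, and 32.9% and 36.9% in WT8. ZFP36, which promotes decay, rose in 786-O (log2 0.68) and fell in WT8 (-0.78). ZFP36L2 rose in both lines (0.42 and 0.83). ZC3H12A, an RNase, fell in WT8 (-0.85), ELAVL1, which stabilizes such mRNAs, rose in WT8 (0.50), and KHSRP fell slightly in 786-O (-0.18).

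Of 11 genes whose products bind, present or cleave chemokines, 3 were called higher and 4 lower in 786-O, and 2 higher and 6 lower in WT8. As a share of all genes, 24.5% were higher and 24.4% lower in 786-O, and 32.9% and 36.9% in WT8. DPP4, a protease that trims the amino end of several chemokines, rose slightly in 786-O (log2 0.14) and fell in WT8 (-1.38, from 125 ± 0.765 to 48.2 ± 0.839 CPM). ANPEP, another aminopeptidase, rose in 786-O (0.31) and fell in WT8 (-0.98), where it had 19 or fewer counts against 2796 or more in 786-O. SDC1, a proteoglycan that holds chemokines at the cell surface, fell in 786-O (-0.64) and rose in WT8 (0.63). EXT1, which builds heparan sulfate, rose in both lines (0.43 and 0.22), and NDST1 fell in 786-O (-0.67). TNFAIP6, a secreted protein that binds CXCL8, fell in 786-O (-0.33, adjusted p 0.0819 in edgeR). In WT8 it had 0 to 5 counts with shControl and 0 with shBMAL1. It passed the filter through the 786-O groups and is among the 6 called lower in WT8, a call that rests on counts near 0.

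Genes of the cell identity and cell cycle lists also moved. CSF1R and ITGAM, receptors of the myeloid lineage, were the leukocyte markers with the highest counts. CSF1R rose with shBMAL1 in 786-O (log2 0.80) and fell in WT8 (-3.02), and ITGAM fell in both lines (-1.55 and -1.31). PTPRC, the general leukocyte marker, had a mean of at most 0.00886 CPM in any group, and the 6 endothelial markers together stayed between 0.0288 and 1.74 CPM. Of the renal and epithelial genes, KRT18 rose in 786-O (0.50) and fell in WT8 (-0.83), KRT8 rose in 786-O (0.41) and fell in WT8 (-0.30), PAX2 fell in both (-0.31 and -0.54), and CDH2 fell in 786-O (-0.23) and rose in WT8 (0.22). Among the cell cycle genes the median log2 change was 0.03 in 786-O, with 11 of 30 called higher and 5 lower, and 2.23 in WT8, led by CDC6 (3.29) and MCM5 (3.25). The calls in 786-O stand beside 24.5% of all genes called higher and 24.4% lower. In 786-O CDK1 and BIRC5 rose (0.42 and 0.31) while CDC6 and MCM2 fell (-0.24 and -0.20). The part of these genes in the chemokine values was not tested.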

How the data were processed

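RNA-seq of 12 cultures (4 groups of 3 libraries, labelled as biological replicates) was used. The authors isolated RNA on RNeasy columns and had DNBSEQ stranded mRNA libraries sequenced as pairs of 100-base reads. The methods of the study name SeqMan NGen with GRCh37 and ArrayStar, while the submitters' processing notes name STAR, hg38 and DESeq2, and which set made the table was not settled. The deposited values are estimated counts per gene, not scaled between libraries, with 0.028 standing for 0. Of the other values, 5.67% were not whole. The stand-in was set to 0 and values were rounded, although the design had foreseen plain counts. After rounding, 14904 values were 2 and 11312 were 1, so mates may have been counted separately, and 3 counts may stand for fewer fragments. Reads carry no molecular identifiers, so bounds cover counting error only.

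Genes passing filterByExpr were scaled by TMM (factors 0.948 to 1.04) and fitted together in 1 model by edgeR 4.0.16, run in R 4.3.3 (quasi-likelihood F test with robust fitting, Benjamini-Hochberg over 16838 genes). Genes with an adjusted p under 0.1, the rate the study used, are called. The common biological coefficient of variation was 5.70%, and replicates correlated at r from 0.991 to 0.992. On simulated counts for the 786-O comparison over 16838 genes, the fit recovered 40 of 50 genes changed 1.5-fold and 44 of 50 changed 2-fold. It recovered 48 of 50 changed 4-fold and 47 of 50 changed 8-fold, and called 18 unchanged genes. Every simulated gene had the same biological coefficient of variation, and 200 genes were changed, far fewer than were called in the data. These rates need not hold for genes with a larger spread. Where a group had at most 3 counts in each library, the fold is a bound against 3 counts per library. Positions and exon lengths are from GENCODE 44 on GRCh37.

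The members and gene lists were chosen with earlier results of these data known, and the lists were written from memory. Besides the 9 members and the label checks, the genes named are, per list and shBMAL1 comparison, the top 2 rises and the top 2 falls among called genes with a mean of at least 50 counts. For likeness, 5 genes were named for CCL5 and 3 for CXCL8. Members have no p or call in the WT8 contrast and the interaction, nor CCL5 between the lines. Alternatives were RLE size factors, DESeq2 1.42.0, no filter, halved counts, a replicate block, a fit of the compared groups alone, a fold over 1.5, CXCL1 to CXCL3 summed, and each library left out.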

Additional observations from a re-analysis of the deposited data

Results flagged for a closer look

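CXCL2 was higher in every shBMAL1 library than in any shControl library of 786-O (log2 change 0.39) and lower in every shBMAL1 library than in any shControl library of WT8 (log2 change -0.40). No test of the difference between the lines is given, because it contains the contrast on which the set was chosen, so the difference counts as not tested.

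For genes outside the set, the difference between the changes with shBMAL1 in WT8 and in 786-O was taken from the interaction in edgeR. The genes are those named for large changes in 1 of the lines, so how many of them were called is no independent evidence, and 28.5% of all genes were called negative and 27.4% positive. The cell identity and cell cycle lists are left out here, as are JUN and JUNB, which the naming rule did not pick. Of the genes that rule named in the other lists, 9 were called in opposite directions in the lines. These were IL1R1 (-0.87), NFKBIZ (-1.79), FOS (-3.16), EGR1 (-3.54), ZFP36 (-1.46), ANPEP (-1.29) and DPP4 (-1.52), higher in 786-O and lower in WT8, and IRF3 (0.59) and SDC1 (1.27), the reverse. Interactions were also called negative for CXCL16 (-1.61), ACKR3 (-1.65), IL6 (-2.63), BCL3 (-0.85), TNFAIP3 (-0.70), IRF1 (-0.37), IFIH1 (-0.79), TMEM173 (-1.56), CEBPB (-0.93), ZC3H12A (-0.89) and EXT1 (-0.21). They were called positive for IFNGR2 (0.40), IFNAR2 (0.40), BIRC3 (0.16), IKBKG (0.46), NFKBIB (0.47), MB21D1 (1.03), ZFP36L2 (0.41), KHSRP (0.13), ELAVL1 (0.57) and NDST1 (0.70). The label checks differed too, with an interaction of -0.86 for BMAL1 and -0.65 for VHL. The summed level of the 30 cell cycle genes moved with the WT8 groups, and its part in these values was not tested.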

How the results depend on the processing

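Over 7 refits with all libraries, 141 of 145 tested member values kept their direction and call, 4 gained a call, 0 lost one and 0 reversed. The 4 are CCL20 and CXCL5 in 786-O, with counts halved or the groups compared fitted alone, which put the members called lower there at 3 in either setting. Summing CXCL1 to CXCL3 left 1 member called higher in 786-O, 1 (CCL5, a description only) higher in WT8 with shControl and 0 higher in WT8 with shBMAL1. CCL5 was not tested between the lines with shBMAL1 when those groups were fitted alone. A required fold over 1.5 took the members called higher in 786-O from 3 to 2 and those higher in WT8 with shBMAL1 from 1 to 0, and reduced the genes called to 2409 with shBMAL1 in 786-O, 6037 with shBMAL1 in WT8, 8312 between the lines with shControl, 6504 with shBMAL1 and 4932 for the interaction, from 8237, 11753, 13378, 12295 and 9427. With 1 library left out, 252 of 264 tested member values kept their call, 8 lost it and 4 gained it. Members called in 786-O then ran from 1 to 3 higher and from 1 to 3 lower, and those higher in WT8 with shBMAL1 from 0 to 1. The cause of these shifts was not tested, apart from fewer samples or genes by construction. Replicate numbers did not pair the libraries: of 18 same-number pairs across groups, 0 had deviations correlated over 0.1 (-0.0966 to 0.0872), and 4 libraries were closest to their own number. With a replicate block 8055 genes were called in 786-O and the tested member counts were the same in each comparison. Members under about 50 counts per library (CCL20, CXCL3, CXCL10) are limited by depth.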
